A study of Rattus norvegicus with 15 samples.

Results

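Voltage-gated and potassium ion channels were followed on the arrays by gene symbol: every probe with exactly 1 gene symbol in the platform annotation, where that symbol starts with Kcn, Scn, Cacn, Clcn or Hcn, was taken. The rule uses names and no measured value, but it was proposed with earlier results of these data known. It gave 92 probes of 89 genes among the 3757 probes of the table, of which 3440 have 1 symbol. Kcnj3, Kcna5 and Scn8a have a pair of probes each and every other channel gene has 1 probe. All 92 symbols matched RefSeq by gene identifier. The symbols also bring in the epithelial sodium channel subunits Scnn1a and Scnn1g, which are not gated by voltage.

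RNA was measured in 15 samples of 3 tissues, 5 samples each, all from male rats labelled Fischer344, or Fischer for 1 control sample. Control liver came from rats on a basal diet for 70 weeks. Noncancerous cirrhotic liver, called cirrhotic liver here, was tissue around hepatocellular carcinomas of rats fed a choline-deficient diet defined in L-amino acids for 70 weeks, and the carcinomas came from rats on the same diet for the same time. The cirrhotic samples therefore come from tumour-bearing livers, and diet and disease cannot be told apart in any comparison with control liver. The labels do not say whether samples of a group came from separate animals or whether same-numbered samples share an animal, so a p-value here covers only the spread among these samples, which may be technical. The pieces are whole tissue, and in whole tissue fewer cells of a type cannot be told apart from less RNA per cell.

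Voltage-gated sodium and calcium channels open on depolarization and carry the inward currents of nerve, muscle and endocrine cells, while potassium channels carry outward current and return the membrane to rest. Each pore-forming subunit works with accessory subunits that set its trafficking and gating. Inward rectifiers hold the resting potential, ClC proteins carry chloride across surface and endosomal membranes, and HCN channels carry the pacemaker current of heart and brain. Most of these genes are known from nerve and muscle. In liver, potassium and chloride channels take part in volume regulation and bile formation, and vessel walls bring their own potassium and calcium channels into the tissue.

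Kcnj8 and Kcnj2, both inward rectifiers, are the pair of genes named in the rule for the group, and the 250 bases before their RefSeq transcription starts are shown for that reason, as the assembly GRCr8 has them. Kcnj8 lies on the minus strand, with this stretch at chr4:177246549-177246798, and Kcnj2 on the plus strand, at chr10:96559975-96560224. Capitals mark matches to a GC box, GGGCGG, or to a CCAAT box, as read on either strand. A TATA box, with the letters TATAAA, was also searched on both strands. The Kcnj8 match and the first Kcnj2 match lie on the strand opposite to the one printed and are shown as their reverse complement.
Kcnj8: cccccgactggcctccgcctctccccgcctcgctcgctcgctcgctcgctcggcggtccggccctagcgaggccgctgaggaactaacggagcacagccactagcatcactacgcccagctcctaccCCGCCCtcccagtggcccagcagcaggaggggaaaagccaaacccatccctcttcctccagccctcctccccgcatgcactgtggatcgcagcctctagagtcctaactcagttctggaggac
Kcnj2: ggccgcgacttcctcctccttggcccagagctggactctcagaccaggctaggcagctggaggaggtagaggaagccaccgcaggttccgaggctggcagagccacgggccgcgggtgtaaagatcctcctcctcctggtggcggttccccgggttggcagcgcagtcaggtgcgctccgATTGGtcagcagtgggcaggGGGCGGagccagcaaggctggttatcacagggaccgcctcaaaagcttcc
The Kcnj8 stretch held 1 match, a GC box, with 66.8% G and C and 18 CpG dinucleotides. The Kcnj2 stretch held a CCAAT box and a GC box, with 66% G and C and 14 CpG. Over the 70 channel genes with a promoter in the table the median was 61.8% G and C and 12 CpG, against 51.2% and 5 over all 33469 promoters. A GC box was present in 37 of the 70 (52.9%) against 30.5% of all promoters, CCAAT in 16 (22.9%) against 34.0%, and TATAAA in 4 (5.71%) against 12.9%. These are letter matches in the windows only, and no measurement in this series bears on them.

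Values are log2 ratios. In the deposited table every probe is centred on its median over the 15 samples, and the ratios were quantile-normalized here, so 0 is about the middle sample of that probe and a difference of 1 is a 2-fold ratio. No level of one gene can be set against another's, no probe can be called present or absent in liver, and how bright a probe was is unknown. With 5 arrays a tissue the precision is limited by the number of arrays: the 95% interval of a channel probe's difference reached 1.36 to either side in the median, against 1.26 over all probes.

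Samples of 1 tissue were little more alike than samples of different tissues. Over all probes, the median correlation between samples was 0.03 for the 30 pairs within a group and -0.09 for the 75 pairs from different groups. Control 5 and cirrhotic 2 stood apart with r = 0.732, the highest of the 105 pairs, and r = 0.832 over the channel probes. In 14 of the 92 channel probes (15.2%) these 2 samples were together the 2 highest or the 2 lowest of the 15, against 8.12% of all probes. Those 14 were Cacna1a, Cacna1c, Cacna1e, Kcnab1, Kcnab2, Kcnc1, Kcnd3, Kcnh7, Kcnj5, Kcnj8, Kcnj10, Kcnn3, Scn2b and Scn4a. Some channel differences below are also given without the pair, and others moved too. For cirrhotic against control liver Kcne3 went from -1.70 to -2.16, Cacnb4 from -1.64 to -2.07 and Kcnj3 probe 3901 from -1.56 to -1.97. For carcinoma against control liver Scn4a went from 1.57 to 1.14 and Cacnb4 from -0.31 to -0.77. For carcinoma against cirrhotic liver Kcnh2 went from 1.76 to 1.24. The next highest correlation, r = 0.564, was between cirrhotic 1 and carcinoma 1. Differences also ran along the probe numbering: between cirrhotic and control liver, 80.4% of the 1493 probes numbered up to 1600 lay above 0 and 24.7% of the 1872 numbered above 2000. A running median along the numbering was therefore also taken out of each array as an alternative.

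No channel probe passed the adjusted threshold of 0.05 in any of the 3 comparisons, and neither did any of the 3757 probes (limma, Benjamini-Hochberg adjustment). The smallest adjusted p over the channel probes was 0.374 for cirrhotic against control liver (Kcnj12), 0.564 for carcinoma against control liver, and 0.234 for carcinoma against cirrhotic liver (Cacnb2). Channel genes are therefore described below by their values, and none is called changed.

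At an unadjusted p under 0.05, 10 of 92 channel probes (10.9%) differed between cirrhotic and control liver, 5 higher and 5 lower, against 9.64% of all probes. Kcna6, Clcn1, Kcnj12, Clcn7 and Cacnb1 were the higher ones, and Kcnq1, Kcne3, Cacnb4, Cacna1s and Kcnj3 the lower ones. Of all probes, 4.02% were higher and 5.62% lower. Between carcinoma and control liver 6 channel probes (6.52%) passed, 4 higher (Kcnh2, Kcnab1, Kcnj12, Kcna6) and 2 lower (Kcnj8, Cacna1e), against 7.4% of all probes, 3.65% higher and 3.75% lower. With arrays scaled to a common median the split was 5 higher and 0 lower, and with the deposited values 4 higher and 0 lower. Between carcinoma and cirrhotic liver 6 passed (6.52%), all lower (Cacnb2, Cacnb1, Scn8a by both probes, Kcnj8 and Cacna1e), against 13.2% of all probes, 6.95% higher and 6.28% lower. With either of those scalings 5 passed, 2 of them higher. The first 2 shares are near the background and the third is below it. The last count rested on single samples. It was 14 (15.2%) without cirrhotic 1, against 17.9% of all probes, and 12 (13.0%) without carcinoma 1, against 15.1%. Both of these shares are near the background. In all, 17 channel probes (18.5%) passed at least once, against 22.7% of all probes, and 5 of them (5.43%) passed in 2 comparisons, against 7.51%. Comparisons that share a tissue share its 5 samples.

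All 5 samples of one tissue lay beyond all 5 of the other for 1 channel probe in each comparison. It was Cacnb1 between cirrhotic and control liver (1.65% of all probes), Kcnj8 between carcinoma and control liver (1.89%) and Cacnb1 between carcinoma and cirrhotic liver (2.71%). One probe of 92 is 1.09%, lower than each background, but 1 probe is too few to read as a difference from it. Without control 5 and cirrhotic 2, 12, 5 and 7 channel probes had an unadjusted p under 0.05, against 11.5%, 6.25% and 9.42% of all probes, and 9, 1 and 2 were separated, against 7.4%, 3.14% and 3.22%. With the running median taken out the counts were 2, 6 and 4, against 4.02%, 8.49% and 9.82%. The 2 that remained for cirrhotic against control liver were Kcnj12 and Cacnb1, and the same 6 probes remained for carcinoma against control liver. For carcinoma against cirrhotic liver Cacnb1, Cacnb2 and the Scn8a probe 809 remained, and Kcnip2, an accessory subunit, was added.

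**Figure D1:**
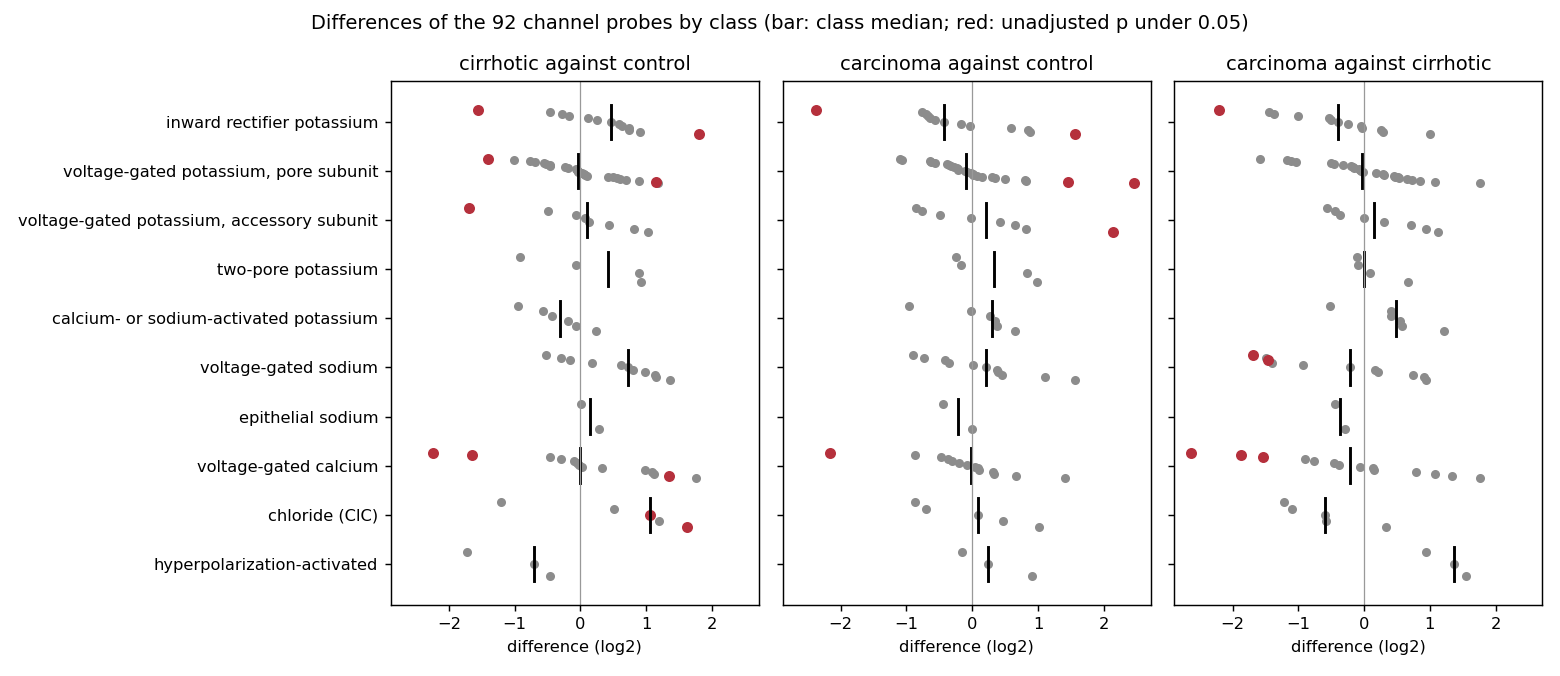
Difference in mean log2 ratio for each of the 92 channel probes (1 point each) by class, in the 3 comparisons; the bar is the class median and red points have an unadjusted limma p under 0.05. Points of most classes lie on both sides of 0, with red points on both sides for cirrhotic against control liver and only below 0 for carcinoma against cirrhotic liver.

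By class, the medians lay on both sides of 0, as the plot of differences by class shows. Over all channel probes the median difference was 0.06 for cirrhotic against control liver, -0.01 for carcinoma against control liver and -0.05 for carcinoma against cirrhotic liver, beside 0.02, 0.00 and -0.02 over all probes. Scaling the arrays to a common median put the channel median at 0.27 in both comparisons with control liver while the median of all probes went to 0.11 and 0.15. Under that scaling and with the deposited values the class medians of voltage-gated calcium channels and of voltage-gated potassium pore subunits turned from just below to above 0 in both comparisons with control liver, and that of voltage-gated sodium channels did so for carcinoma against cirrhotic liver. The class of 4 two-pore potassium channels moved most, from 0.42 to 1.59 for cirrhotic against control liver and from 0.33 to 1.59 for carcinoma against control liver with arrays scaled to a common median.

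The 13 inward rectifier probes had a median difference of 0.47 for cirrhotic against control liver (9 above 0), -0.43 for carcinoma against control liver (4 above 0) and -0.40 for carcinoma against cirrhotic liver (3 above 0). With the running median taken out these medians were 0.04, -0.15 and -0.05. Kcnj8 (probe 268) encodes the pore of a channel that closes on ATP and is known from vascular smooth muscle. Its log2 ratios were -0.12, 1.96, -0.03, 1.72 and 3.27 in control samples 1 to 5, -2.46, 3.46, 1.61, 0.99 and 2.35 in cirrhotic samples 1 to 5, and -0.32, -0.31, -1.91, -0.47 and -2.04 in carcinoma samples 1 to 5. All 5 carcinomas lay below all 5 control samples, by a small gap at the edge, and below 4 of 5 cirrhotic samples, while cirrhotic 1, at the lowest deposited ratio of 0.01, lay below every carcinoma. Carcinoma differed from control liver by -2.37 (95% interval -4.29 to -0.45, unadjusted p = 0.0177, adjusted p = 0.564, limma). Against cirrhotic liver the difference was -2.20 (-4.12 to -0.28, adjusted p = 0.317). Control 5 and cirrhotic 2 hold the 2 highest values, and without them the differences were -1.90 and -1.63. With the running median taken out they were -2.44 and -1.94, and carcinoma and control samples overlapped, while 2.02% of all probes were then separated in that comparison. Cirrhotic and control liver differed by -0.17, well inside the spread, and by -0.51 with the running median taken out.

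The partner of Kcnj8 in vascular channels, the sulphonylurea receptor gene Abcc9, was on the array with 1 probe. It differed by -1.28 in cirrhotic and by -2.12 in carcinoma against control liver, and by -0.84 in carcinoma against cirrhotic liver, none at an unadjusted p under 0.05. The first was -0.78 without control 5 and cirrhotic 2. Markers of smooth muscle were few: 3 of 5 listed genes were measured (Myh11, Cnn1, Tpm1), with a median difference of -0.39 between cirrhotic and control liver, -0.23 between carcinoma and control liver and 0.20 between carcinoma and cirrhotic liver. Tpm1, a tropomyosin also made in other cells, lay apart from the other 2 at 1.66 in cirrhotic against control liver (unadjusted p = 0.0154, limma) and at -2.12 in carcinoma against cirrhotic liver (unadjusted p = 0.00281, limma). These Tpm1 values were 0.84 and -1.39 with the running median taken out. In carcinoma against control liver Tpm1 was at -0.46. At the other end of the list were Cnn1 (-0.43) in cirrhotic against control liver and Myh11 in carcinoma against control (0.031) and against cirrhotic liver (0.42). The mean of the 3 markers per sample ran from -0.51 to 0.45 in control liver, from -0.36 to 0.56 in cirrhotic liver and from -0.71 to 0.46 in carcinoma, and their part in the Kcnj8 values was not tested. Acta2, Des and Tagln were listed with stellate cells and myofibroblasts, and that list is given with the other markers below.

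Kcnj2 (probe 6) encodes a strong inward rectifier that sets the resting potential of heart and skeletal muscle. It read 0.999, -0.45, -0.07, 1.63 and 0.31 in the control samples, 0.10, -0.19, 3.17, 0.59 and 0.00 in the cirrhotic samples, and -0.13, 0.45, -0.71, -0.72 and -0.26 in the carcinomas. Cirrhotic 3 stood far above the other samples of its group, and all 3 groups overlapped. Carcinoma differed from control liver by -0.76 (-2.05 to 0.54, adjusted p = 0.795, limma) and from cirrhotic liver by -1.01 (-2.31 to 0.28, adjusted p = 0.469), the latter -0.40 without cirrhotic 3 and -0.66 with the running median taken out. The difference between cirrhotic and control liver was 0.25, and -0.35 without cirrhotic 3.

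Kcnj12 (probe 1052), a close relative of Kcnj2, was lowest in control liver, at -2.39, -1.14, -2.44, -0.60 and 0.02. Cirrhotic liver gave 0.02, -0.36, 1.53, 0.90 and 0.38, and carcinoma 1.74, 0.85, -0.98, -0.42 and 0.05. Control 5 was the only control sample within the range of cirrhotic liver, and control 1 was at the lowest deposited ratio. Cirrhotic liver differed from control liver by 1.81 (0.53 to 3.08, unadjusted p = 0.00756, adjusted p = 0.374, limma), the smallest p among the channels in that comparison. Without control 5 and cirrhotic 2 the difference was 2.35 and with the running median taken out 1.28. Carcinoma differed from control liver by 1.56 (adjusted p = 0.572), by 1.89 without the pair and by 1.49 with the running median taken out.

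Kcnj3, the pore of a channel opened by G proteins in heart and brain, was read by 2 probes. Probe 3901 gave 2.03, 0.95, 2.06, -0.11 and -0.03 in control liver, -0.41, 0.02, -1.65, -0.50 and -0.38 in cirrhotic liver and 0.61, 1.83, -0.84, 0.27 and 0.21 in carcinoma. Control samples 1, 2 and 3 were above every cirrhotic sample, and the remaining 2 were just below the highest of them. Its difference between cirrhotic and control liver was -1.56 (adjusted p = 0.413, limma), and -0.81 with the running median taken out. Probe 105 of the same gene differed by 0.73 in the same comparison, in the opposite direction, and by 0.30 with the running median taken out.

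Voltage-gated potassium channel pores made up the largest class, with 26 probes and medians of -0.04, -0.09 and -0.03 in the 3 comparisons, in the order cirrhotic against control, carcinoma against control, carcinoma against cirrhotic liver. Counts above 0 were 12, 11 and 12 of 26. Kcnh2 (probe 3339) encodes the ERG channel of cardiac repolarization. Control liver read -1.34, 0.40, -2.16, -0.21 and -3.17, cirrhotic liver 1.20, -2.65, -3.39, 2.08 and -0.22, and carcinoma 1.72, 1.49, 0.04, 0.24 and 2.30. All carcinomas were above 0, 4 of 5 control samples were below 0, and cirrhotic samples were spread over the whole range. Carcinoma differed from control liver by 2.46 (0.62 to 4.30, unadjusted p = 0.0111, adjusted p = 0.564, limma), by 1.99 without control 5 and cirrhotic 2, and by 2.74 with the running median taken out. Against cirrhotic liver the difference was 1.76 (adjusted p = 0.398), 1.06 without cirrhotic 3 and 1.16 with the running median taken out.

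Kcna6 (probe 1004), a Shaker-type delayed rectifier of neurons, had control values of -0.40, -0.31, -1.64, -1.46 and 0.02. Its cirrhotic values were 0.40, -0.04, 1.43, -0.79 and 0.94 and its carcinoma values 1.21, 1.78, 0.22, -0.41 and 0.69. Carcinoma 4 and cirrhotic 2 and 4 lay within the control range and the other 7 samples on the diet lay above it. The difference between carcinoma and control liver was 1.46 (adjusted p = 0.564, limma) and that between cirrhotic and control liver 1.15 (adjusted p = 0.509), the second being 0.66 with the running median taken out.

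Kcnq1 (probe 3447), the pore of a delayed rectifier in heart and epithelia, was read at 0.35, 1.64, 0.47, 0.88 and -1.12 in control liver, -0.70, -0.79, -1.46, -1.90 and 0.07 in cirrhotic liver and 0.12, 0.75, -0.03, 0.24 and -0.46 in carcinoma. Control 5 alone among the control samples lay within the cirrhotic range. Cirrhotic liver differed from control liver by -1.40 (-2.52 to -0.28, adjusted p = 0.413, limma), by -1.83 without control 5 and cirrhotic 2, and by -0.57 with the running median taken out. At the ends of the class, Kcna1 differed by 1.17 between cirrhotic and control liver, by 0.53 without control 2, whose value is at the lowest deposited ratio, and by 0.71 with the running median taken out. Kcna2 differed by -1.09 between carcinoma and control liver and by -1.59 between carcinoma and cirrhotic liver, and the first was between -1.82 without control 2 and -0.72 without control 3.

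Accessory subunits of voltage-gated potassium channels, 8 probes, had medians of 0.10, 0.21 and 0.15. Kcne3 (probe 3491), a small membrane subunit that joins Kcnq1 in epithelia, read 1.18, 1.19, 0.59, 0.94 and -0.14 in control liver, -1.27, 0.02, -0.94, -1.67 and -0.86 in cirrhotic liver, and -2.44, 1.52, 1.15, 1.15 and -1.42 in carcinoma. Control 5 was again the only control sample inside the cirrhotic range, while carcinoma fell into 3 high and 2 low samples. The difference between cirrhotic and control liver was -1.70 (-3.05 to -0.35, adjusted p = 0.413, limma), and -0.89 with the running median taken out. Kcnq1 and Kcne3 carry probe numbers close to each other, 3447 and 3491, in the range where most probes of any kind lay below 0 in this comparison.

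Kcnab1 (probe 3103), a cytoplasmic subunit that speeds inactivation of Shaker-type channels, had control values of -1.74, 0.61, -2.65, -0.18 and -3.48, cirrhotic values of 0.93, -2.92, -0.02, -0.01 and -0.29, and carcinoma values of 0.28, 1.48, 0.65, -0.01 and 0.88. Control 2 lay among the carcinomas and the other 4 control samples lay below all of them. Control 5 and cirrhotic 2 were the 2 lowest of the 15 samples. Between carcinoma and control liver the difference was 2.14 (0.48 to 3.81, adjusted p = 0.564, limma), 1.65 without the pair and 2.19 with the running median taken out. Kcnab2, its relative, differed by -0.86 in that comparison, and Kcne2 by -0.57 between carcinoma and cirrhotic liver, the lowest of the class in each. Kcne2 was at -0.34 without carcinoma 1.

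**Figure D2:**
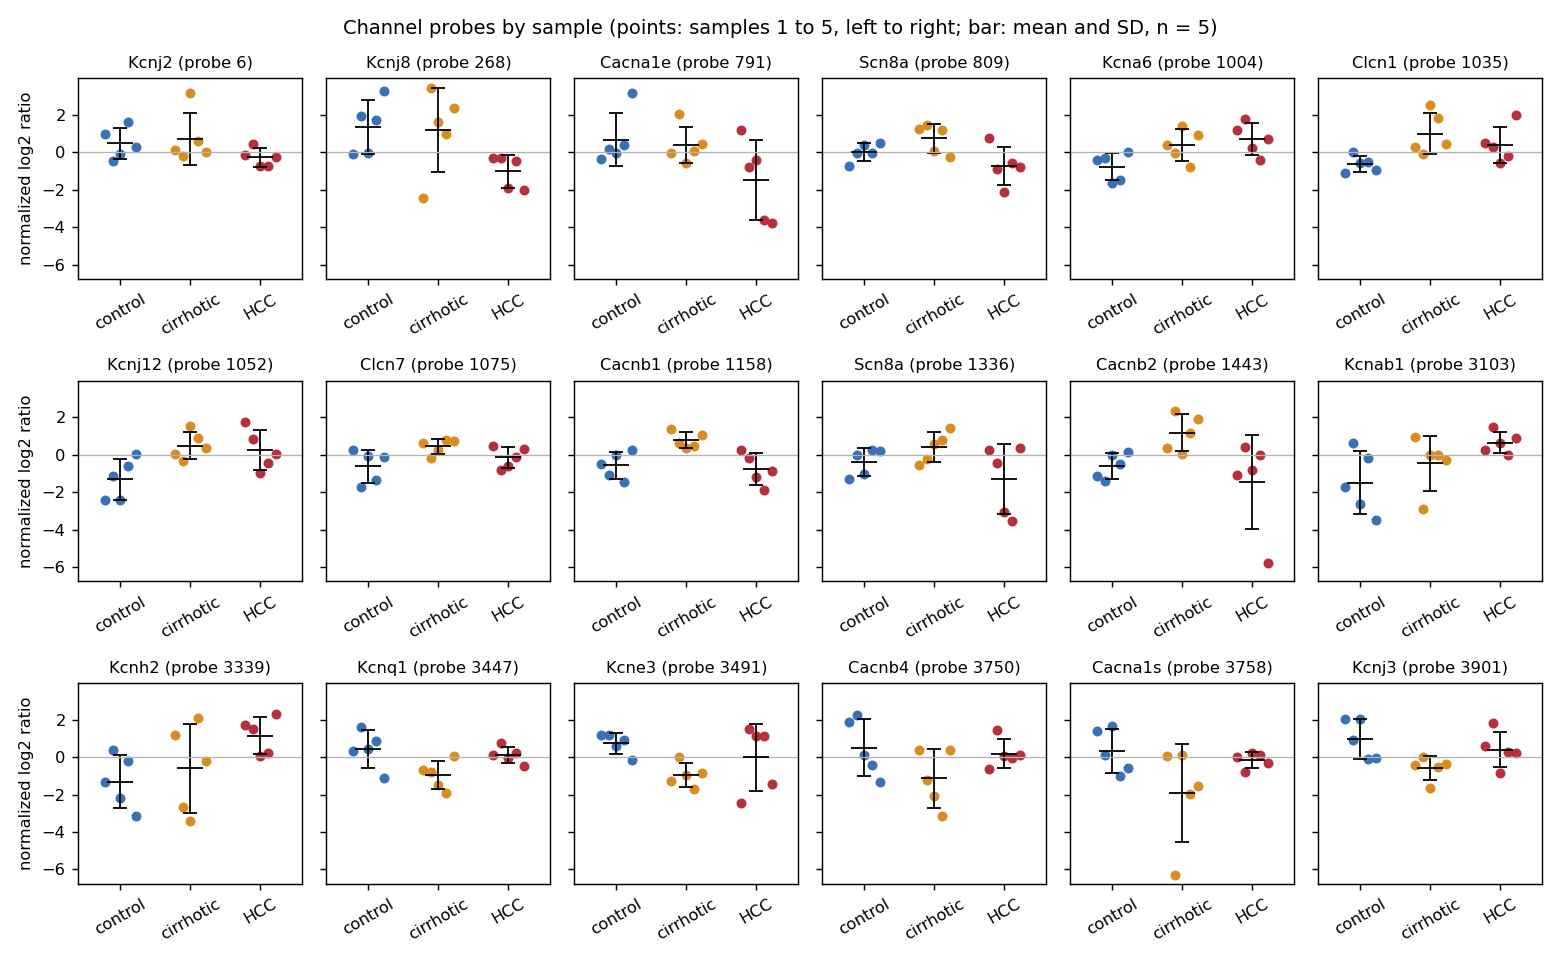
Normalized log2 ratio (vertical axis) of Kcnj2, Kcnj8 and the channel probes with an unadjusted p under 0.05 in at least 1 comparison, 1 panel a probe, with 5 control, 5 cirrhotic and 5 carcinoma (HCC) samples as points and bars for mean and SD (n = 5). The groups overlap in nearly all panels; for Cacnb1 (probe 1158) the 5 cirrhotic samples lie above all control and all carcinoma samples.

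Two-pore potassium channels, which carry leak current at rest, had 4 probes. Kcnk3 lay lowest in cirrhotic against control liver at -0.92 and in carcinoma against control liver at -0.25, and highest in carcinoma against cirrhotic liver at 0.67. These were -1.24, -0.85 and 0.39 without control 5 and cirrhotic 2. Kcnk1 differed by 0.92 between cirrhotic and control liver and by 0.33 without control 3. Kcnk9 differed by 0.99 between carcinoma and control liver and by 0.36 without control 3. Kcnk10 differed by -0.10 between carcinoma and cirrhotic liver and by 0.24 without control 5 and cirrhotic 2. In 3 of the 4 probes a control sample was at the lowest deposited ratio.

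Of the 6 potassium channel probes gated by calcium or sodium ions, 1 was above 0 in cirrhotic against control liver, 4 in carcinoma against control liver and 5 in carcinoma against cirrhotic liver, with medians of -0.32, 0.30 and 0.48. Kcnn4, the intermediate-conductance channel of blood cells and epithelia, differed by -0.94 between cirrhotic and control liver and by 1.21 between carcinoma and cirrhotic liver, values that were -0.40 and 0.67 without cirrhotic 4. Kcnma1, the large-conductance pore, was the lowest at -0.96 and -0.52 in the comparisons of carcinoma with control and with cirrhotic liver, and at -0.48 and -0.039 without carcinoma 1. The second was -1.11 with the running median taken out. Its smooth muscle partner Kcnmb1 was the highest in cirrhotic and in carcinoma against control liver, at 0.23 and 0.64, which became -0.019 without cirrhotic 3 and 0.34 without carcinoma 2. None of the probes of these 2 classes had an unadjusted p under 0.05 in any comparison.

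The 11 voltage-gated sodium channel probes had medians of 0.72 (8 above 0), 0.21 (7 above 0) and -0.22 (5 above 0). Taking out the running median brought the first to 0.17. Scn8a, a pore of neurons, was read low in carcinoma by both of its probes. Probe 809 gave -0.71, -0.04, 0.39, -0.05 and 0.52 in control liver, 1.27, 1.45, 0.06, 1.20 and -0.25 in cirrhotic liver and 0.75, -0.90, -2.11, -0.55 and -0.76 in carcinoma. Carcinoma 1 lay among the cirrhotic samples and the other 4 carcinomas lay below all of them. Carcinoma differed from cirrhotic liver by -1.46 (-2.55 to -0.37, adjusted p = 0.260, limma) and by -1.13 with the running median taken out. Probe 1336 gave -1.31, -0.02, -1.05, 0.27 and 0.18, then -0.53, -0.23, 0.58, 0.81 and 1.43, then 0.24, -0.42, -3.07, -3.54 and 0.36 in the same order. Carcinomas 3 and 4 were the lowest of all 15 samples and the other 3 carcinomas overlapped both other groups. The difference between carcinoma and cirrhotic liver was -1.70 (adjusted p = 0.354, limma), -1.13 without carcinoma 4 and -0.86 with the running median taken out.

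Scn4a, the skeletal muscle sodium channel, differed by 1.36 in cirrhotic and 1.57 in carcinoma against control liver, the highest of the class in both. The first was 0.82 without cirrhotic 1 and 0.88 with the running median taken out. Scn11a, of sensory neurons, was the lowest in cirrhotic against control liver at -0.53 and at -0.11 without cirrhotic 2, and the accessory subunit Scn2b was the highest in carcinoma against cirrhotic liver at 0.94, a value that became 0.08 without control 5 and cirrhotic 2. Of the epithelial sodium channel subunits, Scnn1a differed by 0.29, 0.00 and -0.29 and Scnn1g by 0.01, -0.44 and -0.44 in the 3 comparisons, all inside the spread.

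Voltage-gated calcium channels had 14 probes with medians of -0.00, -0.02 and -0.22, and 5 of the 14 (35.7%) had an unadjusted p under 0.05 in at least 1 comparison, against 22.7% of all probes. The third median was -0.52 without control 5 and cirrhotic 2. The beta subunits sit on the inner side of the pore and bring it to the membrane. Cacnb1 (probe 1158) read -0.51, -1.06, -0.03, -1.47 and 0.23 in control liver, 1.36, 0.66, 0.36, 0.46 and 1.05 in cirrhotic liver, and 0.28, -0.16, -1.19, -1.88 and -0.87 in carcinoma. Every cirrhotic sample was above every control sample and every carcinoma by narrow gaps at the edges, and control and carcinoma samples overlapped. Cirrhotic liver differed from control liver by 1.34 (0.25 to 2.44, unadjusted p = 0.0181, adjusted p = 0.421, limma) and carcinoma from cirrhotic liver by -1.54 (-2.63 to -0.45, unadjusted p = 0.00773, adjusted p = 0.247). These were 1.57 and -1.57 without control 5 and cirrhotic 2. With the running median taken out they were 0.94 and -1.11, and the separation held in both, as it did for 0.452% and 1.36% of all probes.

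Cacnb2 (probe 1443) had control values of -1.15, -1.42, -0.03, -0.52 and 0.16, cirrhotic values of 0.37, 2.35, 0.04, 1.17 and 1.94, and carcinoma values of -1.07, 0.42, -0.82, 0.00 and -5.81. Carcinoma 5 was at the lowest deposited ratio, whose log2 value after normalization differs by array, and stood far below every other sample. Carcinoma 2 overlapped the cirrhotic range. The difference between carcinoma and cirrhotic liver was -2.63 (-4.41 to -0.85, unadjusted p = 0.00566, adjusted p = 0.234, limma), and -1.54 without carcinoma 5. Between cirrhotic and control liver it was 1.76, the highest of the class, at an unadjusted p of 0.0524.

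Cacnb4 (probe 3750) read 1.88, 2.29, 0.10, -0.41 and -1.31 in control liver, 0.41, -1.24, -2.05, -3.17 and 0.38 in cirrhotic liver and -0.61, 1.47, 0.04, -0.04 and 0.12 in carcinoma. Control samples 1 and 2 were the highest of all and the remaining control samples overlapped cirrhotic liver. The difference between cirrhotic and control liver was -1.64 (adjusted p = 0.486, limma), and -0.54 with the running median taken out. Cacnb3 (probe 558) differed by 1.09 in the same comparison (unadjusted p = 0.0905, limma). Cacnb1, Cacnb2 and Cacnb3 thus lay above 0 and Cacnb4 below 0. The signs were kept with the running median taken out, at 0.94, 1.24, 0.69 and -0.54.

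Among the pore-forming calcium channel subunits, Cacna1e (probe 791), of the R-type current of neurons and endocrine cells, read -0.35, 0.18, -0.03, 0.42 and 3.17 in control liver, -0.05, 2.03, -0.57, 0.09 and 0.45 in cirrhotic liver and 1.19, -0.77, -0.40, -3.62 and -3.79 in carcinoma. Carcinomas 4 and 5 were far below all other samples, control 5 and cirrhotic 2 were the highest, and carcinoma 1 lay above 4 of 5 samples in each of the other groups. Carcinoma differed from control liver by -2.16 (-3.88 to -0.44, adjusted p = 0.564, limma) and from cirrhotic liver by -1.87 (adjusted p = 0.345). Without control 5 and cirrhotic 2 these were -1.54 (unadjusted p = 0.104) and -1.46 (unadjusted p = 0.121), and the second was -1.29 without carcinoma 5.

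Cacna1s (probe 3758), the skeletal muscle pore, read 1.43, 0.12, 1.67, -0.98 and -0.60 in control liver, 0.07, -6.29, 0.10, -1.95 and -1.53 in cirrhotic liver and -0.01, -0.78, 0.24, 0.14 and -0.33 in carcinoma. Cirrhotic 2 was the lowest value of any sample for this probe, cirrhotic 4 and 5 came next, and the other 2 cirrhotic samples lay within the control range. Cirrhotic liver differed from control liver by -2.25 (adjusted p = 0.480, limma) by -1.16 without cirrhotic 2, by -1.39 without control 5 and cirrhotic 2, and by -1.24 with the running median taken out. Carcinoma differed from cirrhotic liver by 1.77, the highest of the class, and by 0.68 without cirrhotic 2. Cacna1c, the cardiac and smooth muscle L-type pore, was the highest in carcinoma against control liver at 1.41.

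The 5 ClC chloride channel probes had medians of 1.05 (4 above 0), 0.09 (3 above 0) and -0.60 (1 above 0). These were 0.55, -0.06 and -0.37 with the running median taken out. Clcn1 (probe 1035), of skeletal muscle, read -1.08, 0.02, -0.55, -0.52 and -0.96 in control liver, 0.29, -0.09, 2.52, 1.84 and 0.47 in cirrhotic liver and 0.49, 0.31, -0.59, -0.18 and 1.98 in carcinoma. Control 2 and cirrhotic 2 crossed, and otherwise all cirrhotic samples were above all control samples. The difference between them was 1.62 (0.41 to 2.83, unadjusted p = 0.0108, adjusted p = 0.397, limma), and 1.09 with the running median taken out. Clcn7 (probe 1075), an exchanger of lysosomes found in most cells, read 0.23, -1.75, -0.07, -1.33 and -0.10, then 0.63, -0.18, 0.25, 0.79 and 0.74, then 0.49, -0.82, -0.57, -0.10 and 0.31 in the same order. Of the cirrhotic samples only cirrhotic 2 lay within the control range, as did carcinomas 2, 3 and 4. The difference between cirrhotic and control liver was 1.05 (0.02 to 2.09, adjusted p = 0.511, limma), and 0.55 with the running median taken out. Clcn2 was the lowest in carcinoma against cirrhotic liver at -1.22, and at -0.47 without carcinoma 5 and -0.78 with the running median taken out. Clcn4 was the lowest of the class in the first 2 comparisons, where 1 and 2 of the 5 probes lay below 0, and the highest in the third. Its values were -1.20, -0.87 and 0.34. These were -0.33, -0.70 and -0.37 with the running median taken out. Without control 5 and cirrhotic 2 the Clcn4 values were -1.72 (unadjusted p = 0.0227, adjusted p = 0.333, limma), -0.99 and 0.72.

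The 3 HCN pacemaker probes all lay below 0 in cirrhotic against control liver (median -0.70) and all above 0 in carcinoma against cirrhotic liver (median 1.37), with 2 of 3 above 0 in carcinoma against control liver (median 0.23). Hcn4 differed by -1.72, -0.16 and 1.56. Without control 5 and cirrhotic 2 these were -2.45 (unadjusted p = 0.0173, adjusted p = 0.3265, limma), -1.35 and 1.11. The second was 0.11 with the deposited values and 0.13 with arrays scaled to a common median. Without cirrhotic 3 the first was -0.94 and the third 0.78. Hcn2 differed by -0.46 between cirrhotic and control liver and 0.91 between carcinoma and control liver, and Hcn3 by 0.94 between carcinoma and cirrhotic liver. The Hcn2 values were -0.74 and 0.51 without control 5 and cirrhotic 2. Their probe numbers are 3354 to 3356, next to each other, and with the running median taken out the class medians in the 3 comparisons were 0.20, 0.59 and 0.81, Hcn2 was at 0.46 and Hcn4 at -0.82 in cirrhotic against control liver, and Hcn3 at 0.38 in carcinoma against cirrhotic liver.

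**Figure D3:**
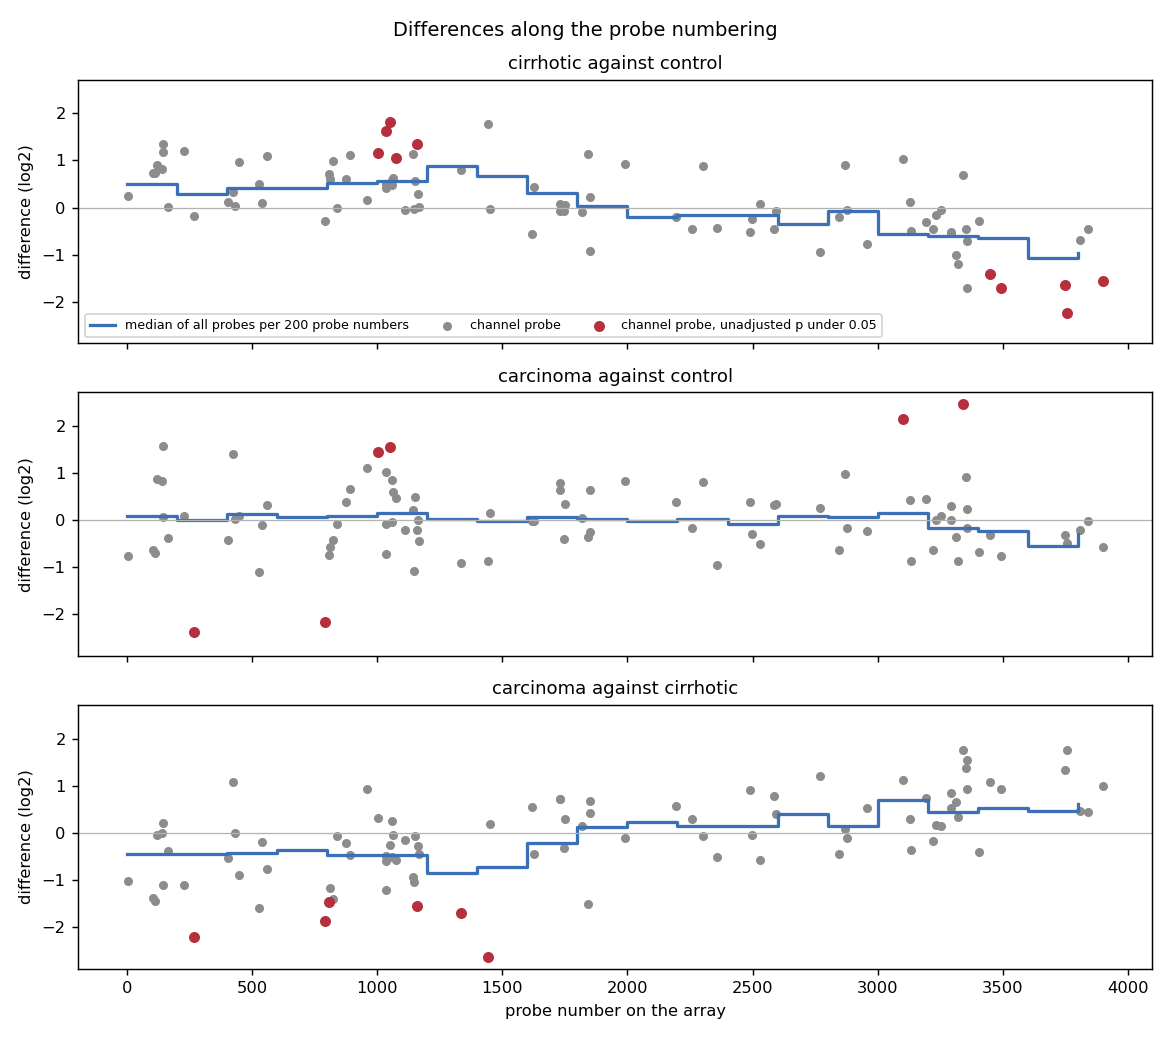
Difference in mean log2 ratio (vertical axis) against the number in the probe's identifier (horizontal axis) in the 3 comparisons, with channel probes as points, those with an unadjusted p under 0.05 in red, and the median of all probes per 200 numbers as the line. The line runs from above to below 0 for cirrhotic against control liver and the other way for carcinoma against cirrhotic liver, and the channel points follow it.

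The channel probes followed the numbering of the whole table. Of the 44 numbered up to 1600, 38 (86.4%) lay above 0 between cirrhotic and control liver, with a median of 0.60 beside 0.54 for all probes of that range. Of the 37 numbered above 2000, 6 (16.2%) lay above 0, with a median of -0.46, the same as that of all probes there. The 5 higher probes with an unadjusted p under 0.05 carried numbers from 1004 to 1158 and the 5 lower ones numbers from 3447 to 3901. Taking out the running median left 26 of 44 and 16 of 37 above 0, with medians of 0.15 and -0.04. Between carcinoma and cirrhotic liver 7 of 44 (15.9%) and 28 of 37 (75.7%) lay above 0, beside 25.5% and 68.7% of all probes. The 6 lower probes with an unadjusted p under 0.05 in that comparison carried numbers from 268 to 1443. Between carcinoma and control liver 22 of 44 and 17 of 37 lay above 0. No source used here says what the numbering stands for, and its part in the differences was not tested.

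Channel probes varied more within a tissue than the typical probe. The SD within groups, pooled over the 3 tissues, had a median of 1.14 over the 92 channel probes and 0.97 over all 3757, and 58 of 92 (63.0%) were above the overall median. It was 1.36 for voltage-gated calcium and 1.25 for voltage-gated sodium channels, and 0.68 for the accessory subunits of potassium channels, in which no value reached the lowest deposited ratio. Kcns1, a silent potassium channel subunit, varied least (0.329) and Scn2b most (2.29). Neurotransmitter-gated channels, 50 probes of a class that is also mainly neuronal, had a median of 0.97, cytochrome P450 genes 1.01 (38 probes) and ribosomal protein genes 0.90 (40 probes). With the deposited values the medians were 1.22 for channels and 1.01 for all probes, and with the running median taken out 1.01 and 0.88. Those lists hold different numbers of probes and the difference in spread was not tested.

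**Figure D4:**
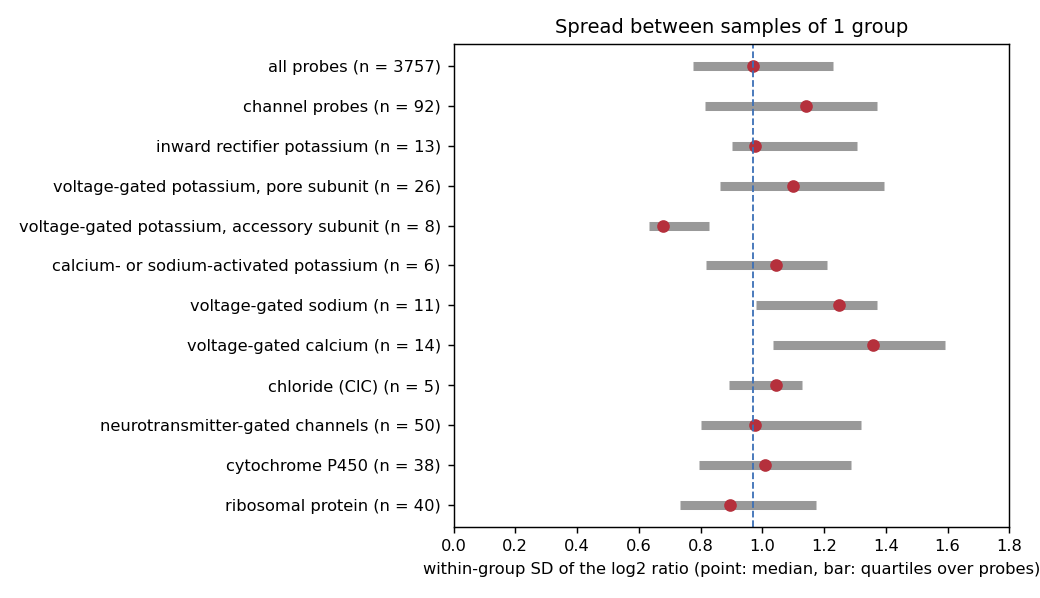
Pooled SD of the log2 ratio within tissues (horizontal axis) for all probes, the channel probes, the larger channel classes and 3 other gene groups, with the point at the median and the bar over the quartiles across probes. The channel median (1.14) lies to the right of the dashed line at the median of all probes (0.97), and the accessory subunits lie to its left.

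The lowest deposited ratio, 0.01, was reached by 18 of 92 channel probes (19.6%) in at least 1 sample and by 14.8% of all probes. Control 1 had 7 such channel probes (7.61%, against 6.1% of all probes) and cirrhotic 1 had 6 (6.52% against 5.56%). Control 2 had 4 (4.35% against 1.73%), control 3 had 3 (3.26% against 2.02%) and carcinoma 5 had 1 (1.09% against 0.08%). The other 10 samples had none. After quantile normalization that ratio read -2.39 in control 1, -2.46 in cirrhotic 1, -3.36 in control 2 and -5.81 in carcinoma 5. Its depth on the log2 scale thus differs by array. No source used here says whether it marks a spot without signal. The genes were Kcnj3, Kcnj8 and Kcnj12 among inward rectifiers, Kcna1, Kcna2, Kcna3, Kcna5 and Kcnd1 among voltage-gated potassium pores, Kcnk1, Kcnk9 and Kcnk10 among two-pore channels, Scn1a, Scn2a and Scn9a among sodium channels, Cacna2d1 and Cacnb2 among calcium channels, and Clcn3 and Clcn4.

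No correlation between the 2 probes of a channel gene passed after adjustment. Over the 15 samples the 2 Kcna5 probes gave Pearson's r = -0.285 (permutation p = 0.298, adjusted over the 3 pairs 0.447) and Spearman's rho = -0.221 (permutation p = 0.429). The Kcnj3 probes gave r = -0.138 (permutation p = 0.622, adjusted 0.622) and rho = -0.221 (permutation p = 0.420). The Scn8a probes gave r = 0.497 (permutation p = 0.0718, adjusted 0.215) and rho = 0.254 (permutation p = 0.360), both of them low in carcinoma 3. The Scn8a probes lay on the same side of 0 in each comparison, at 0.72 and 0.80, -0.74 and -0.90, and -1.46 and -1.70. So did the Kcna5 probes, at -0.69 and -0.46, -0.21 and -0.01, and 0.47 and 0.45, while the Kcnj3 probes lay on opposite sides in both comparisons with cirrhotic liver. Probe numbers are 809 and 1336 for Scn8a, 3810 and 3840 for Kcna5, and 105 and 3901 for Kcnj3. With the running median taken out, the Scn8a values were 0.37 and 0.05 for cirrhotic against control liver. For carcinoma against cirrhotic liver they were -1.13 and -0.86. The part of the numbering in these signs was not tested. Without the 2 samples farthest from the median of the first probe, r was -0.439, -0.03 and 0.282. Over all 42 pairs of probes that share 1 symbol in the table, from 38 genes, r had a median of -0.03, 21 pairs were above 0 and 7 were above 0.5, up to 0.764. No source used here gives the part of the transcript a probe matches, so a pair may read different transcripts.

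**Figure D5:**
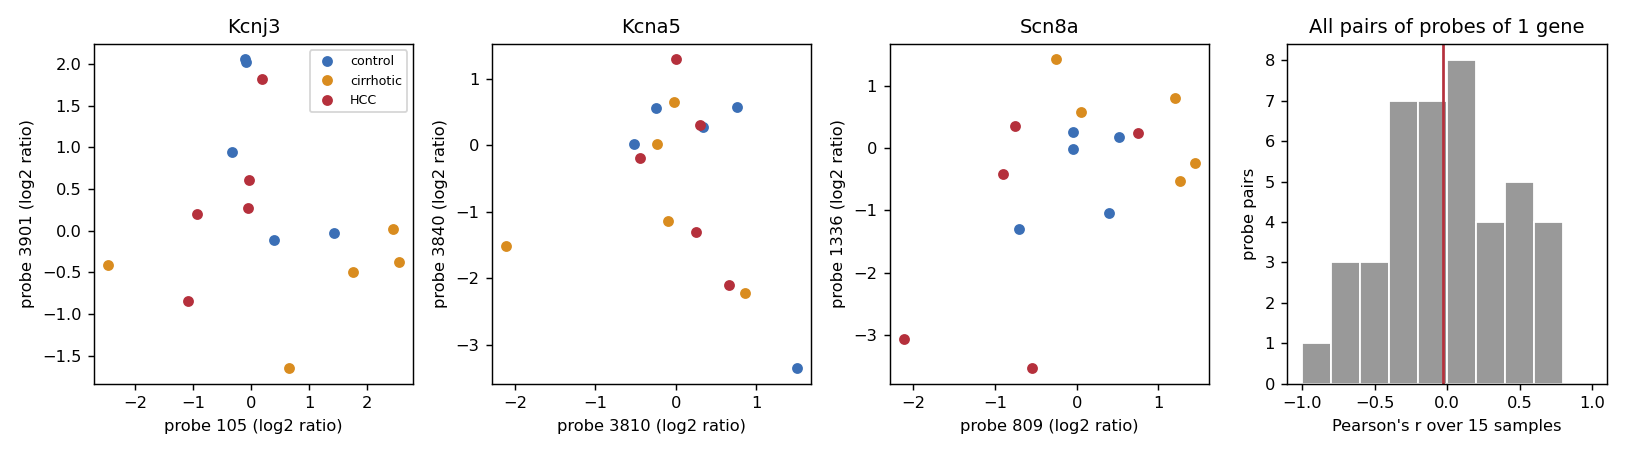
Log2 ratios of the 2 probes of Kcnj3, Kcna5 and Scn8a against each other (15 samples, coloured by tissue), and a histogram of Pearson's r over the 42 same-gene probe pairs of the whole table with the line at its median. Points for Kcnj3 and Kcna5 show no common direction, and the histogram spreads on both sides of 0.

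Other ion transport genes, from a fixed list of pumps, water channels, connexins and channels opened by ligands, had 97 probes. At an unadjusted p under 0.05, 4 were higher and 1 lower in cirrhotic against control liver, 5 higher and 2 lower in carcinoma against control liver, and 0 higher and 7 lower in carcinoma against cirrhotic liver, and 0 passed the adjusted threshold in limma. These are 5.15%, 7.22% and 7.22% of the 97, against 9.64%, 7.4% and 13.2% of all probes. Their median differences were 0.39, 0.03 and -0.44, and 0.04, -0.03 and -0.20 with the running median taken out. Of 9 aquaporins, the water channels, 3, 0 and 4 passed in the 3 comparisons: Aqp4 (1.71), Aqp1 (1.62) and Aqp7 (1.57) were above control liver in cirrhotic liver, and Aqp9 (-1.60), Aqp7 (-1.53), Aqp4 (-1.51) and Aqp3 (-1.39) below cirrhotic liver in carcinoma. Aqp9 is the main aquaporin of hepatocytes. The carcinoma value was -0.74 for Aqp7 and -0.86 for Aqp3 without carcinoma 4, and -0.79 for Aqp7 with the running median taken out. Among pumps and release channels, the calcium pump Atp2b2 (1.29) was higher in cirrhotic than control liver, Atp2b3 (-2.02) lower in carcinoma than control liver (-1.08 without carcinoma 5), and the calcium release channel Itpr3 (-1.41) lower in carcinoma than cirrhotic liver. Neurotransmitter-gated subunits were higher in carcinoma than control liver for Chrnb1 (1.95), Chrne (1.59, and 1.04 without control 5), Chrna4 (1.41), Htr3b (1.21) and the ATP-gated P2rx6 (1.22), and lower for Gabrb2 (-1.12). Chrnb4 (-1.49) was lower in cirrhotic than control liver, and Glra3 (-1.42) and Glra2 (-1.28, and -0.85 with the running median taken out) lower in carcinoma than cirrhotic liver. Gja5 (-1.05), a connexin, and Trpc2 (0.93, and 0.50 with the running median taken out) had all samples of carcinoma on one side of cirrhotic liver without reaching that p.

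Markers of the cell types the tissue could hold were set beside these values. The 14 measured neuron and nerve markers had a median difference of 0.65 between cirrhotic and control liver (11 above 0), 0.04 between carcinoma and control liver and -0.65 between carcinoma and cirrhotic liver (12 below 0). Stx1a was the highest in the first (3.12) and the lowest in the others (-1.26 and -4.38), and at the other end were Map2 (-0.52) and then Gap43 (1.41 and 1.73). Their mean per sample ran from -1.0 to 0.60 in control liver, 0.17 to 0.68 in cirrhotic liver and -0.75 to 0.23 in carcinoma. The 10 hepatocyte markers had medians of 0.40, 0.62 and 0.03, from Ttr (-1.52) to Apoa1 (2.35), Cyp3a2 (-2.34) to Tf (1.29) and Otc (-3.04) to Ttr (1.92). Without control 5 and cirrhotic 2 the hepatocyte medians were 0.50, 0.16 and -0.61. The 7 markers of stellate cells and myofibroblasts had medians of 0.00, 0.34 and 0.80, from Col3a1 (-1.34) to Gfap (0.52), Gfap (-0.15) to Col1a2 (0.88) and Gfap (-0.67) to Col3a1 (1.92). The 6 lymphocyte markers had medians of 0.33, 0.19 and -0.42, from Cd3d (-0.63) to Cd28 (2.57), Cd5 (-0.59) to Cd8a (0.45) and Cd28 (-2.23) to Cd8a (0.61). Col3a1 and Cd28 were each at one end of their list in the first comparison and at the other end in the third. The 4 cholangiocyte markers had medians of 0.53, -0.28 and -0.72, from Epcam (-0.77) to Aqp1 (1.62), Epcam (-0.84) to Aqp1 (0.78) and Slc4a2 (-1.02) to Epcam (-0.071). The 3 endothelial markers had medians of -0.47, -0.43 and 0.07, from Vwf (-1.24) to Kdr (0.94), Vwf (-1.17) to Edn1 (-0.17) and Kdr (-1.36) to Edn1 (0.30). The 2 macrophage markers, Cd14 and Csf1r, had medians of 0.25, 1.19 and 0.94, with Cd14 at 0.22, 0.66 and 0.44 and Csf1r at 0.28, 1.73 and 1.45. With the running median taken out, the medians were 0.05 for smooth muscle and -0.02 for lymphocytes in cirrhotic against control liver, and -0.38 for cholangiocytes and -0.42 for endothelium in carcinoma against cirrhotic liver. No marker probe passed the adjusted threshold in limma. Ratios centred on each probe cannot show whether a marker was absent, and the markers' part in the channel values was not tested.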

How the data were processed

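The deposited table holds 1 ratio per probe and sample, a linear ratio for which the authors' method is not stated per the labels. In all 3757 probes its median over the 15 samples is 1 (tolerance 1e-06), so each was centred on itself before deposit, and no ratio is under 0.01. No source used here gives the array type, dyes, scanner or background correction. The plan had allowed for brightness values; on centred ratios no filter for dim probes was possible. Ratios were quantile-normalized, put on the log2 scale and fitted in 1 model of 3 groups with lmFit and eBayes (mean-variance trend, 12 residual degrees of freedom) in limma 3.58.1 under R 4.3.3, over all probes, with two-sided p-values adjusted by Benjamini-Hochberg. The fit was tested on simulated data with independent noise for each probe and array. That simulation held neither differences running along the probe numbering nor arrays that resemble each other, so it does not bear on these. Correlations of probe pairs used 100000 permutations (scipy 1.17.1).

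Kcnj2, Kcnj8 and each channel probe with an unadjusted p under 0.05 or complete separation are given in every sample. The highest and lowest difference of each class are named, and other ion transport genes by the same rules; markers are given as counts, medians and extremes. The members and lists were chosen with earlier results of these data known. The running median along the probe numbering was taken over 101 probes. Alternatives were other scalings, a pseudocount of 0.1, a floor of 0.634, the 25th percentile of all values, probes at the lowest ratio left out, no trend, pairs of groups fitted alone, array weights, a replicate block, gene means, and samples left out. Symbols were checked against RefSeq genes, and 0 columns were left aside.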

Additional observations from a re-analysis of the deposited data

Results flagged for a closer look

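The 5 samples of each tissue were checked for the named channel probes, 120 groups in all. In 7 of them the gap of 1 sample to the other 4 took up more of the group's range than Dixon's limit of 0.71 allows. Chance gives about 1 in 20 for unselected groups. Most of these probes were named for a small p or as a class extreme, so that rate does not carry over to them. Kcnj2 read 3.17 in cirrhotic 3, with the other 4 between -0.19 and 0.59. Cacna1e read 3.17 in control 5, with the others between -0.35 and 0.42, and cirrhotic 2, the sample most like control 5 on the whole array, was the next highest for this probe. Cacnb2 read -5.81 in carcinoma 5, the others lying between -1.07 and 0.42. Kcna1 read -3.36 in control 2, against -0.44 to 0.14, and both of these low values are at the lowest deposited ratio. How low that ratio reads after normalization differs by array. For Scn2b, carcinoma 5 stood at 2.58 above a range of -0.75 to 0.15. Carcinoma 2 gave 1.74 for Kcnmb1, where the other carcinomas gave -0.11 to 0.38. Kcnk10 in cirrhotic 4 was -3.19, below a range of -0.09 to 0.90.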

How the results depend on the processing

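No channel probe passed the adjusted threshold under any alternative run. Counts at an unadjusted p under 0.05 stayed within 1.5 times the reported ones except the following. For cirrhotic against control liver the count was 2 with the running median taken out, and the median difference was 0.27 with arrays scaled to a common median and with the deposited values (0.11 over all probes). For carcinoma against control liver the count was 3 with the floor at the 25th percentile, and the median difference was 0.27 and 0.25 with those scalings. For carcinoma against cirrhotic liver the count was 15 with array weights (16.3%, against 20.1% of all probes), 15 without control 1 and cirrhotic 1 (16.3% against 18.0%), and 10 with the replicate number as a block (10.9% against 13.5%). Leaving out 1 sample at a time gave counts from 8 to 13, 4 to 9 and 5 to 14, and median differences from 0.020 to 0.29, -0.15 to 0.13 and -0.18 to 0.17. The cause was not tested.

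The labels do not say that numbers pair the samples, and they were not taken to: deviations of same-numbered samples had r from -0.34 to 0.39 (median -0.04, 15 pairs), other numbers a median of -0.03, and 2 of 15 samples correlated best with their own number. Cirrhotic 1 and carcinoma 1 had the highest of these values. The block gave 10 and 6 probes in the comparisons with control liver. Leaving out control 5 and cirrhotic 2 together was chosen after seeing the data.

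Differences of the named channel probes were followed, each being 1 probe in 1 comparison. They also number 92 but are not the 92 channel probes, and were named for an unadjusted p, a separation or a class extreme, or as Kcnj2 and Kcnj8. Of these 92 differences, 21 changed sign at least once. With the running median taken out these were Kcnj2 -0.11, Scnn1a -0.17, Scnn1g -0.46 and Hcn2 0.46 for cirrhotic against control liver, Kcnq1 0.084, Cacnb4 0.24, Cacna1s 0.015 and Hcn4 0.20 for carcinoma against control liver, and Kcnj12 0.22, Scnn1a 0.17, Scnn1g 0.041 and Clcn4 -0.37 for carcinoma against cirrhotic liver. Without control 1 and cirrhotic 1 they were Kcnj8 0.37, Scnn1a -0.12 and Scnn1g -0.10, then Cacnb4 0.029, Kcnk3 0.00918 and Hcn4 0.24, then Scnn1a 0.25, Kcnk10 0.033 and Clcn4 -0.11, in the same order. With the floor they were Kcnj8 0.19 and Hcn2 0.11, then Cacnb2 0.029, then Scn2b -0.011 and Scnn1a 0.27. Without control 5 and cirrhotic 2 they were Scnn1g -0.0055, Cacnb1 0.0029 and Kcnk10 0.24. Array weights gave Kcnj8 0.37 and Scnn1g -0.054 for cirrhotic against control liver, and Hcn4 for carcinoma against control liver was 0.13 with arrays scaled to a common median and 0.11 with the deposited values.

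With 1 sample left out, the ranges that crossed 0 for cirrhotic against control liver were Kcnj2 -0.35 to 0.54, Kcnj8 -0.74 to 0.74, Cacna1e -0.70 to 0.33, Scnn1a -0.25 to 0.63, Scnn1g -0.15 to 0.18, Kcnmb1 -0.019 to 0.52 and Hcn2 -0.94 to 0.06. For carcinoma against control liver they were Cacnb1 -0.46 to 0.081, Cacnb2 -1.33 to 0.22, Cacnb4 -0.77 to 0.13, Scnn1a -0.68 to 0.78, Kcnk3 -0.85 to 0.13 and Hcn4 -1.35 to 0.46. For carcinoma against cirrhotic liver they were Kcnj12 -0.62 to 0.061, Scnn1a -0.97 to 0.49, Kcnk10 -0.78 to 0.35 and Clcn4 -0.11 to 0.72.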
